A study of Mus musculus with 6 samples.

Results

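Chemokines and their receptors were described in the auditory nerve of young and old mice. Members are all genes of the deposited table whose symbol starts with Ccl, Ccr, Cxcl, Cxcr, Ackr, Xcl or Xcr followed by a number, together with Cx3cl1 and Cx3cr1. The rule found 50 members among 17607 genes: 32 ligands, 14 receptors that signal through G proteins and 4 atypical receptors. The nerve was microdissected from the cochleas of CBA/CaJ mice (an inbred strain common in work on hearing) and sequenced as bulk RNA. The young group was 3 mice aged 2 months and the old group 3 mice aged 2.5 years, with no other treatment given in the labels. Both cochleas of a mouse went into 1 library, which makes every replicate a separate animal. Values are normalised read counts, and where several stand together they follow the order of replicates 1, 2 and 3.

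Chemokines are small secreted proteins that direct the movement of leukocytes along gradients, and their receptors are G protein-coupled receptors. Atypical receptors bind the same ligands without signalling through G proteins and clear or transport them. The families are named after the spacing of their first cysteines (C, CC, CXC and CX3C). In nerve, resident macrophages carry Cx3cr1 and neurons are a known source of its ligand Cx3cl1, while inflammatory CC ligands recruit monocytes from blood.

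The libraries held between 34587979 and 40841478 reads, so depth was similar across groups. All 11 spiral ganglion neuron markers and all 11 Schwann cell and glia markers were present in quantity, with summed values of at least 290500 and 453500 in every library. Summed values of 12 macrophage and microglia markers were 7276, 5194 and 5709 in young and 18240, 20740 and 11620 in old nerves, and 10 of the 12 were higher in old. The neuron markers summed to 437300, 448700 and 448100 in young and to 290500, 334500 and 408400 in old nerves. Bulk RNA was measured, so fewer cells of a type and less RNA per cell cannot be told apart.

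Of the 50 members, 36 had enough reads to be tested, which means about 10 reads in at least 3 libraries. Of these, 9 were higher and 1 was lower in old nerves at an adjusted p under 0.05 (limma). The members higher were Cxcl13, Ccl8, Ccl17, Ccl9, Ccl6, Ccr1, Ccl5, Ccl11 and Ackr3, and the member lower was Ccr10. Among all 15882 tested genes, 34.6% were called in either direction, against 27.8% of tested members. Calls higher in old made up 15.9% of all tested genes and 25% of tested members. Calls lower made up 18.7% of all tested genes and 2.78% of tested members. These shares come from unlike levels. The median of the mean values was 926 over all tested genes, and 22 of the 36 tested members had a young mean under 50. A fall is harder to call at low values, and the part of level in these shares was not tested. Cxcl13, Ccl8 and Ccl17 passed the filter only through the old libraries, so they had to differ, and without them 6 of 33 members (18.2%) were called higher. The 15.9% of all tested genes still includes genes that passed in this way, so it is not a like share for the 18.2%. The median log2 fold change was 0.64 over tested members and -0.00080 over all tested genes, and 27 of 36 tested members had a positive value.

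By role, counts were small and the difference between roles was not tested. Of 22 tested ligands, 7 were called higher and 0 lower, with a median log2 fold change of 1.01. Without Cxcl13, Ccl8 and Ccl17, 4 of 19 ligands were called higher (21.1%). Over all tested genes, 15.9% were called higher and 18.7% lower. That 15.9% includes genes that passed the filter only through the old libraries. The number of ligands lower was also 0 in edgeR and DESeq2, and 0 at limma's unadjusted p under 0.05. Of 10 tested signalling receptors, 1 was called higher and 1 lower, with a median of 0.34. Of 4 atypical receptors, 1 was called higher and 0 lower, with a median of 0.06. At limma's unadjusted p under 0.05 the atypical receptor lower was 1, and in edgeR and DESeq2 0 were. Every old library lay above every young library in 11 of the 36 tested members (30.6%), against 25.5% of all tested genes. The 11 include Cxcl13, Ccl8 and Ccl17, which passed the filter only through the old libraries, so their separation was set by the filter. The 25.5% also includes such genes, and their share was not counted, so no excess is read from these shares. Every old library lay below every young one in 3 tested members (8.33%), against 26.3% of all tested genes. Most tested members lay below the median level of all tested genes, and the part of level here was not tested.

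**Figure D1:**
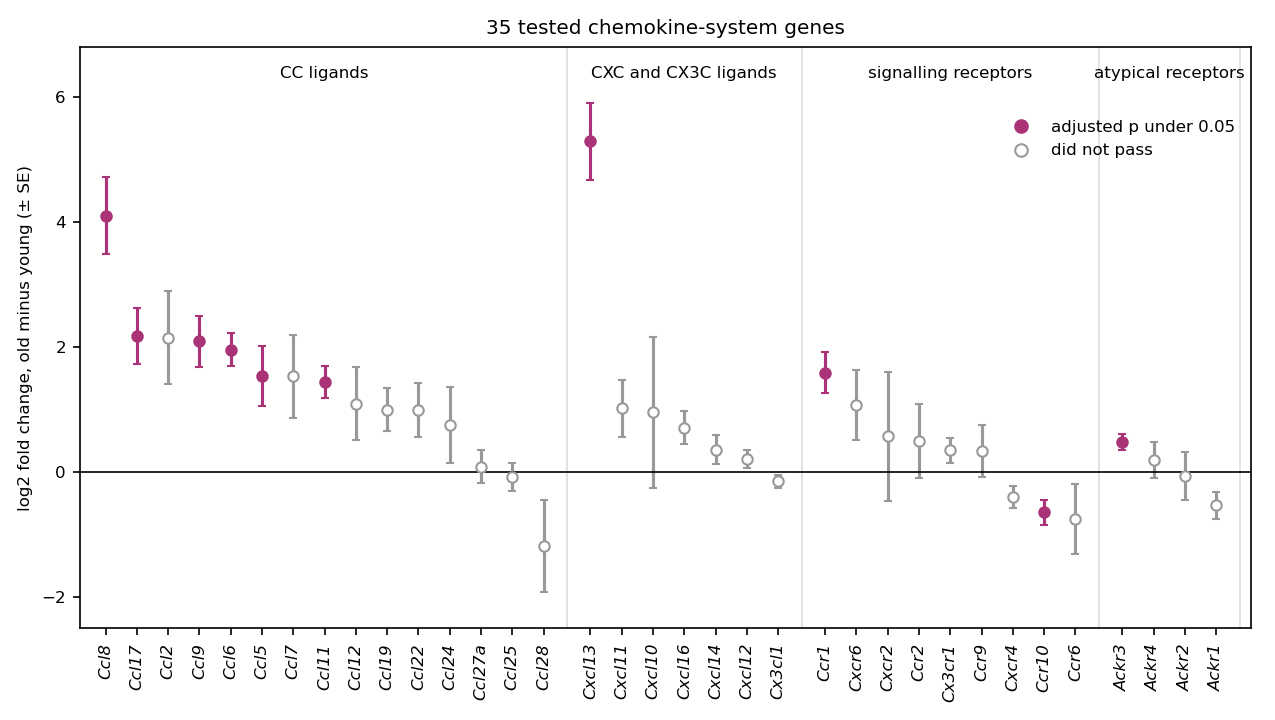
Log2 fold change (old minus young) with its SE, computed from log2(value + 1), for 35 of the 36 tested members, grouped by role. The 7 ligands called higher lie between 1.44 and 5.29, while most receptors lie closer to 0 and Ccr10 is at -0.64.

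The CC ligands held most of the calls: 6 of 15 tested were higher and 0 lower, with a median log2 fold change of 1.44. Among all tested genes 15.9% were called higher. Of the 6, Ccl8 and Ccl17 passed the filter only through the old libraries, so they had to differ. Both are in the count of 6 of 15 and in the median of 1.44, which are therefore partly set by the filter. The calls of CC ligands lay mainly in a pair of gene blocks on chromosome 11 (positions are mm10). The first block, between 82035577 and 82116799, holds Ccl2, Ccl7, Ccl11, Ccl12 and Ccl8. Its summed value was 159, 260 and 241 in young and 628, 673 and 600 in old nerves, so all old libraries were above all young ones. Most of this sum was Ccl11 in every library (113, 219 and 184 in young, 431, 400 and 532 in old). In Ccl2, Ccl7 and Ccl12 the groups overlapped. The other block, between 83525779 and 83664683, holds Ccl5, Ccl9, Ccl6, Ccl3 and Ccl4. Its summed value was 92.1, 43.2 and 60.6 in young and 281, 228 and 228 in old nerves, again without overlap.

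In the first block, Ccl11 (eotaxin, which attracts eosinophils through Ccr3; 82057832 to 82062955, plus strand) was the most abundant ligand. It had 113, 219 and 184 in young and 431, 400 and 532 in old nerves. All old libraries were above all young ones, and young 1 was lowest. Means rose from 172.0 ± 54.2 to 454.5 ± 68.7 (SD, n = 3 each), a log2 fold change of 1.44 ± 0.25 (SE, adjusted p = 0.00794). With the trends of transcript length and GC content removed from each library the value was 0.85 with an adjusted p of 0.0679, so the call is lost there.

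Ccl8 (a monocyte chemoattractant family member that signals through Ccr8 in mouse; 82115185 to 82116799, plus strand) was almost absent from young nerves. Its values were 1.88, 0 and 0 in young and 19.0, 33.2 and 20.3 in old nerves. These are 2 reads over the young libraries and 74 over the old ones, a ratio of 36.5 with a 95% exact interval of 9.74 to 307 that covers counting error only. The old libraries all exceeded the young ones, and the log2 fold change was 4.10 ± 0.62 (adjusted p = 0.00596).

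Ccl2, Ccl7 and Ccl12, which attract monocytes through Ccr2, did not pass the test, and in each of them old 3 stood below the other old libraries. Ccl12 had 28.2, 28.5 and 27.5 in young and 101, 104 and 21.3 in old nerves, so old 3 was below every young library. The log2 fold change was 1.10 (adjusted p = 0.186), and without old 3 it was 1.84 (adjusted p = 0.00288). Ccl7 had 12.2, 5.90 and 7.71 in young and 37.0, 51.2 and 8.70 in old nerves, with old 3 within the young range. Its log2 fold change was 1.53 (adjusted p = 0.114), and 2.27 without old 3 (adjusted p = 0.0113). Ccl2 had 3.76, 5.90 and 22.0 in young and 39.1, 83.5 and 18.4 in old nerves, and the groups overlapped through young 3 and old 3. Its log2 fold change of 2.15 had an adjusted p of 0.060, which became 0.0356 without old 3 and 0.0388 without young 3. The authors' deposited table lists Ccl2, Ccl7 and Ccl12 at an FDR of 0.0261, 0.0403 and 0.0453.

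**Figure D2:**
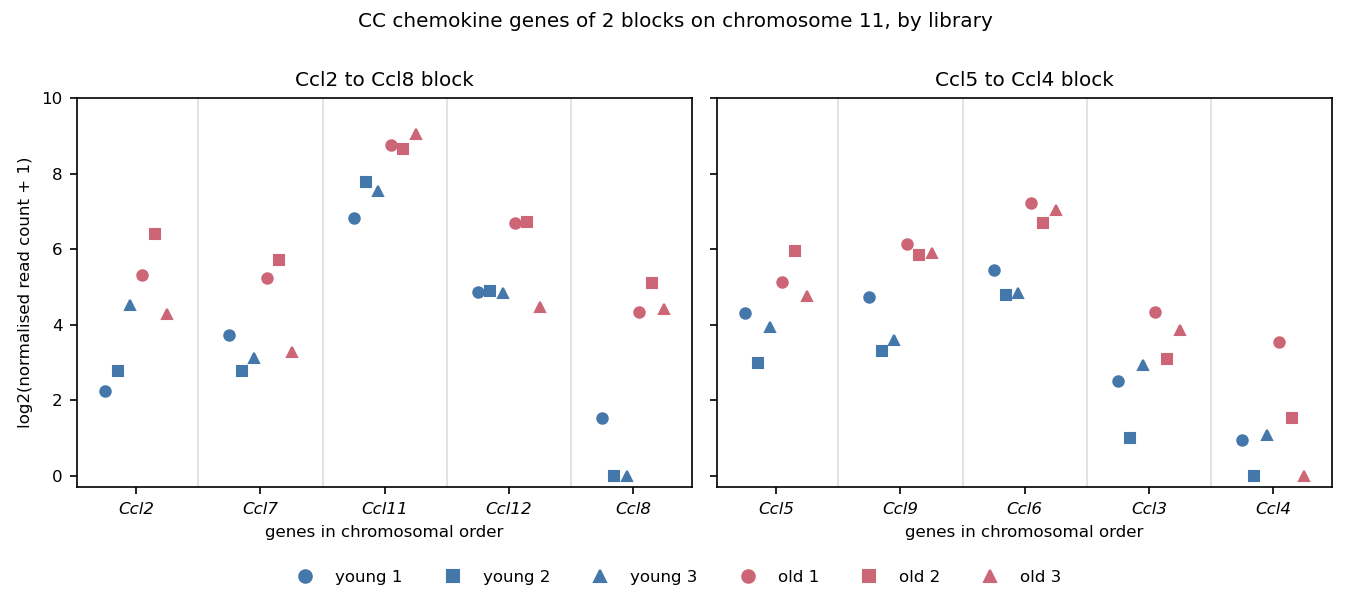
Log2(normalised read count + 1) for the 10 CC ligands in the 2 blocks of chromosome 11, one point per library. Old libraries lie above young ones throughout in Ccl11, Ccl8, Ccl5, Ccl9, Ccl6 and Ccl3, while old 3 falls within or below the young values in Ccl2, Ccl7 and Ccl12.

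In the other block all 3 tested ligands were higher. Ccl6, a rodent ligand of Ccr1 made by macrophages (83587886 to 83593087, minus strand), had 42.3, 26.5 and 27.5 in young and 148, 102 and 130 in old nerves. The groups were far apart and the old libraries close together. Means rose from 32.1 ± 8.83 to 126 ± 23.4, a log2 fold change of 1.96 ± 0.26 (adjusted p = 0.00521), and the call held in all 19 alternatives run. Ccl9, its neighbour and also a Ccr1 ligand (83572917 to 83578636, minus strand), had 25.4, 8.85 and 11 in young and 69.8, 56.0 and 59.0 in old nerves. Its log2 fold change was 2.09 ± 0.41 (adjusted p = 0.0102).

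Ccl5, a ligand of Ccr1 and Ccr3 that T cells and macrophages make (83525779 to 83530518, minus strand), had 18.8, 6.88 and 14.3 in young and 33.8, 60.7 and 26.1 in old nerves. The groups did not overlap, with a log2 fold change of 1.54 ± 0.48 (adjusted p = 0.0429). The call is not firm: without young 2, young 3, old 1 or old 2 the adjusted p was 0.121, 0.0905, 0.0925 and 0.119, and with length and GC trends removed it was 0.108. Ccl3, a Ccr1 ligand that was too low to test, had 4.70, 0.98 and 6.61 in young and 19.0, 7.59 and 13.5 in old nerves, so its old libraries also stood above its young ones. Ccl4, of the same family, had at most 1 read in each young library and 10, 2 and 0 reads in old nerves.

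Elsewhere among the CC ligands, Ccl17 was the member called. It shares a stretch of chromosome 8 with Ccl22 and Cx3cl1 (94745684 to 94812036) and, like Ccl22, attracts T cells through Ccr4. Ccl17 had 3.76, 1.97 and 2.20 in young and 18.0, 14.2 and 13.5 in old nerves, a log2 fold change of 2.18 ± 0.45 (adjusted p = 0.0118). Without old 1 its adjusted p was 0.0520, and without young 1 and old 2 together 0.0507. Ccl22 had 7.52, 13.8 and 6.61 in young and 13.7, 25.6 and 18.4 in old nerves, overlapping at young 2 and old 1 (log2 fold change 1.0, adjusted p = 0.112). Ccl19, which guides T cells and dendritic cells through Ccr7, had 25.4, 19.7 and 19.8 in young and 44.4, 63.6 and 30.0 in old nerves. Its groups were separate, but its log2 fold change of 1.0 had an adjusted p of 0.0562 in limma and 0.0492 in edgeR.

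The remaining tested CC ligands, Ccl24, Ccl25, Ccl27a and Ccl28, ranged from -1.19 to 0.75 in log2 fold change, none passed, and their groups overlapped. Ccl25, known for drawing T cells to the gut through Ccr9, was the most abundant of these, between 74.0 and 115. Ccl21a, the other Ccr7 ligand, had 26 reads in old 2 and at most 3 in any other library, and its positions and values nearly coincide with those of Gm1987. Ccl27b had 3.87 to 8.46 in all libraries and overlaps Gm13306, Gm2506 and LOC100861978, which are listed with the same values, so its values are uncertain.

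Of the CXC ligands, 1 of 6 tested was higher and 0 lower, against 15.9% and 18.7% of all tested genes. That ligand, Cxcl13, attracts B cells and forms lymphoid follicles through Cxcr5 (chromosome 5, 95956939 to 95961068, plus strand). It passed the filter only through the old libraries, so it had to differ, and no other CXC ligand was called. Cxcl13 had 0, 1.97 and 3.30 in young and 141, 77.8 and 67.7 in old nerves. The groups were far apart, with means of 1.76 ± 1.66 and 95.4 ± 39.5. The log2 fold change was the largest among tested members, 5.29 ± 0.61 (adjusted p = 0.00464). In reads this was 5 against 285, a ratio of 56.2 with a 95% exact interval of 23.8 to 174 for counting error only. Beside it, B and plasma cell markers summed to 116, 95.4 and 67.2 in young and to 188, 338 and 227 in old nerves. Of those 9 markers 7 were in the table and 4 tested, 1 of them higher. Their part in the result was not tested.

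**Figure D3:**
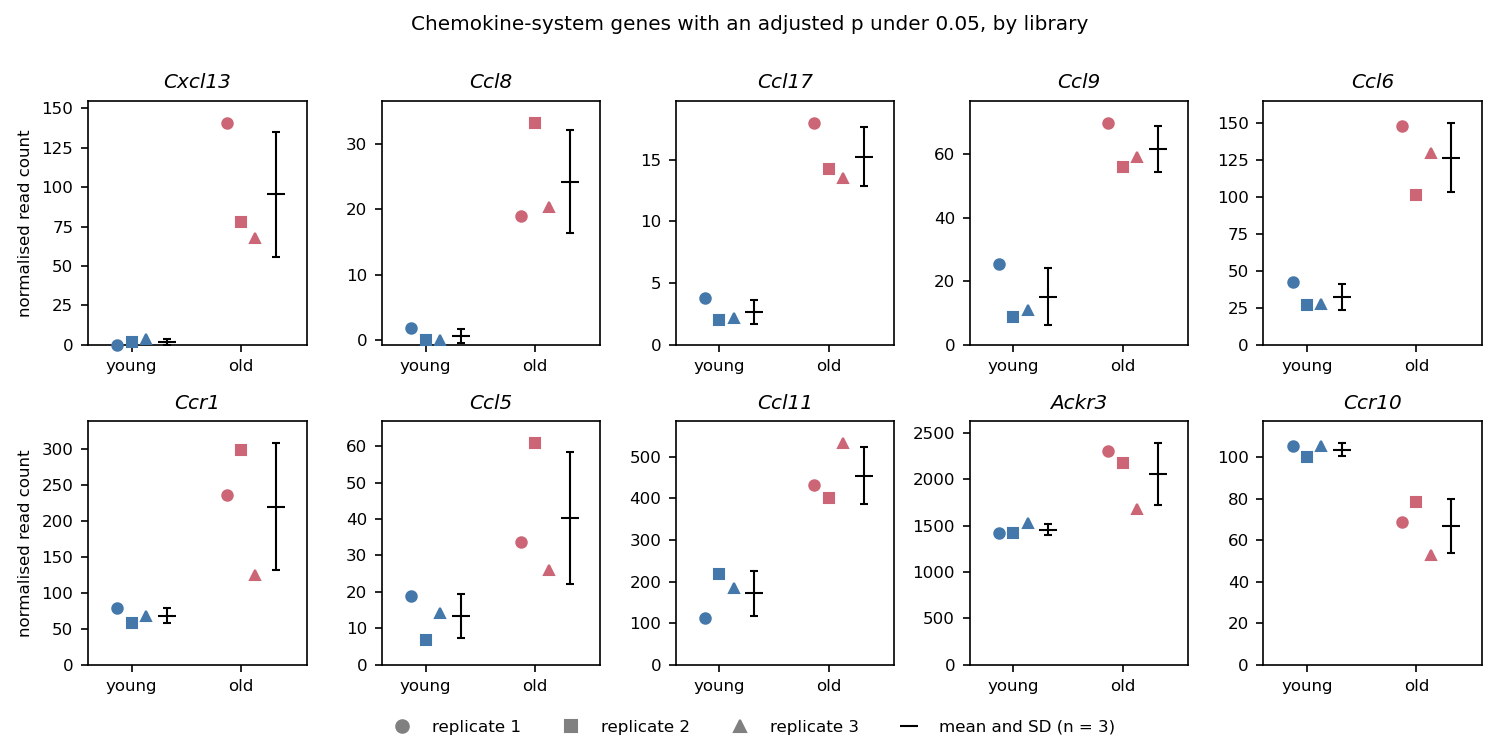
Normalised read counts by library for the 10 members called, with group mean and SD (n = 3). Old libraries lie above young ones in the 9 members called higher, and below them in Ccr10.

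Cxcl9, Cxcl10 and Cxcl11, the interferon-induced ligands of Cxcr3, lie together on chromosome 5 (92321331 to 92363296). Cxcl10 had 28.2, 15.7 and 33.0 in young and 333, 45.5 and 6.77 in old nerves, so old 1 held the highest and old 3 the lowest value of all libraries. The log2 fold change was 0.95 ± 1.21 (adjusted p = 0.567), and it was -0.42 without old 1 and 2.29 without old 3. The summed value of 12 interferon-induced genes was 7077, 9244 and 8515 in young and 43070, 14310 and 10180 in old nerves, with old 1 again far above the rest. Of those 12 genes, limma called 2 higher and DESeq2 7, and their part in the result was not tested. Cxcl11 had 24.4, 11.8 and 30.8 in young and 65.5, 43.6 and 28.0 in old nerves (log2 fold change 1.02, adjusted p = 0.123), overlapping through old 3. Cxcl9, too low to test, was highest in old 2 at 27.5 and at most 8.70 elsewhere. Cxcl10 and Cxcl11 lie inside Art3 on the other strand, and the strandedness of the libraries is unknown here, so reads of the overlapping genes may be shared.

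Promoter sequences are shown for Cxcl13, Ccl8 and Ccl9, which were called higher, and for Cxcl10, which was not called and held both motifs searched. RefSeq promoter windows (GRCm38.p6) were at hand for 37 members, and the 250 bases before the start are printed 5′ to 3′ on the gene's strand, with motif matches in capitals. The windows are chr5:92348890-92349139 (minus strand) for Cxcl10, chr11:83578637-83578886 (minus strand) for Ccl9, chr5:95956689-95956938 (plus strand) for Cxcl13 and chr11:82114935-82115184 (plus strand) for Ccl8.
Cxcl10: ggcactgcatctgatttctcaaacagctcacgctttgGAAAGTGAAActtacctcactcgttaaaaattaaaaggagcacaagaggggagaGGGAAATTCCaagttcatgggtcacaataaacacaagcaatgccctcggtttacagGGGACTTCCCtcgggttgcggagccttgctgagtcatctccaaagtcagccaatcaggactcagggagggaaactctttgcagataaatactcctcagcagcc
Ccl9: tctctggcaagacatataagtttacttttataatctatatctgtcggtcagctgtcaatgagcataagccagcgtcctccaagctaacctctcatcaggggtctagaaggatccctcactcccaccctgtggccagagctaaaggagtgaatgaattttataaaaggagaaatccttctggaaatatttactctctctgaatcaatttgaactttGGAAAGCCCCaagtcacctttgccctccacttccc
Cxcl13: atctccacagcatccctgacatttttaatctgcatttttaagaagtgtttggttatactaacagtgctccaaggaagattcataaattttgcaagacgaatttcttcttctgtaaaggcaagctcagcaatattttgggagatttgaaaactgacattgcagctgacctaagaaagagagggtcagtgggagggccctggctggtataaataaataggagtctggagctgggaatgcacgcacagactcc
Ccl8: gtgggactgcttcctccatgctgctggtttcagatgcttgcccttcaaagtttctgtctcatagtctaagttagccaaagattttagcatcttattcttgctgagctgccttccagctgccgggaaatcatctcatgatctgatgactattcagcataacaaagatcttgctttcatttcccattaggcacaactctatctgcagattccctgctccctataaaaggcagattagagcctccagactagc
The capitals mark an interferon-stimulated response element core, GAAANNGAAA, or the NF-kappa-B consensus, each searched on both strands. Cxcl10 holds the interferon element at 213 to 204 bases before the start and NF-kappa-B matches at 159 to 150 and 103 to 94. Ccl9 holds 1 NF-kappa-B match at 35 to 26 bases before the start, and the printed stretches of Cxcl13 and Ccl8 hold neither. Over windows of 300 bases (with 50 after the start), the interferon element was in 3 of 44 member windows (6.82%; Ccl19, Cxcl10 and Cxcl14), in 3.44% of 32851 windows of all genes and in 3.10% of 17012 windows of genes in the table. The NF-kappa-B consensus was in 8 of 44 member windows (18.2%), in 4.51% of all windows and in 5.36% of those of genes in the table. The 8 members were Ackr2, Ccl27a, Ccl9, Ccr3, Ccr6, Cxcl1, Cxcl10 and Cxcl2, of which Ccl9 was called. Ccl11, Ccl5 and Ccr10, also called, had no window at hand and were not searched. A match is a description of letters, not of a bound site.

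Cxcl12, which retains and positions leukocytes and progenitor cells, was the most abundant member (chromosome 6, 117168535 to 117181368, plus strand). It had 7246, 7055 and 6171 in young and 7538, 9758 and 6635 in old nerves. The ranges overlapped, and its log2 fold change was 0.21 ± 0.14 (adjusted p = 0.289). Per kilobase of transcript, mean member levels in young nerves ran from Cxcl12 (1213) through Cx3cl1 (644), Ackr3 (476), Ackr1 (350), Cxcr4 (281), Cxcl16 (261) and Cx3cr1 (174) to Ccl11 (159). In old nerves the order was Cxcl12 (1418), Ackr3 (670), Cx3cl1 (583), Cxcl16 (448), Ccl11 (420), Ackr1 (247), Cx3cr1 (223) and Cxcr4 (215). Cxcl14 had 292, 203 and 295 in young and 255, 421 and 345 in old nerves (log2 fold change 0.36, adjusted p = 0.255).

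Cxcl16, a membrane-bound ligand of Cxcr6 that also acts as a scavenger receptor, had 716, 617 and 782 in young and 1113, 1722 and 789 in old nerves. Its groups were just separate, because old 3 stood only slightly above young 3. The log2 fold change was 0.71 ± 0.26 with an adjusted p of 0.0735 in limma, 0.0118 in DESeq2 and 0.0126 without old 3, and the authors' deposited table lists an FDR of 0.0129. Its exons overlap those of Zmynd15 over 552 bases. Cxcl1, Cxcl2 and Cxcl5, which attract neutrophils through Cxcr2, were all too low to test, and the highest value among them was 14.2 in old 2. Cxcl17 had 9.40 in young 1, 64.5 in old 2 and 0 elsewhere, and it lies inside another listed gene, 4732471J01Rik.

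Among receptors, Ccr1 was called higher (chromosome 9, 123962126 to 123968692, minus strand). It is a receptor of monocytes, macrophages and neutrophils. Ccr1 had 79.9, 58.0 and 68.3 in young and 237, 299 and 125 in old nerves. All old libraries were above the young ones, old 3 least, and means rose from 68.7 ± 11 to 220.2 ± 88.3, a log2 fold change of 1.59 ± 0.33 (adjusted p = 0.0120). Without young 1 and old 2 together the adjusted p was 0.0542. The macrophage and microglia markers described above kept the same order of libraries within the old group. Their part in the result was not tested. Per 1000 counts of those markers, Ccr1 stood at 11, 11.2 and 12 in young and 13, 14.4 and 10.7 in old nerves, so the ranges overlapped.

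Ccr2, Ccr9 and Cxcr6, in the same stretch of chromosome 9, were not called. Ccr2, the receptor of inflammatory monocytes, had 102, 25.6 and 18.7 in young and 44.4, 58.8 and 55.1 in old nerves. Young 1 was the highest of all libraries. The log2 fold change was 0.50 (adjusted p = 0.535), and 1.22 without young 1 (adjusted p = 0.0370). Ccr9 was highest in old 2 at 148, with 47.0 to 78.2 in the other libraries. Cxcr6 was also highest in old 2, at 57.9, with 8.81 to 19.0 elsewhere (log2 fold change 1.07, adjusted p = 0.175), and it lies inside Fyco1.

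Cx3cr1, the fractalkine receptor of resident macrophages and microglia (chromosome 9, 120048683 to 120068296, minus strand), had 946, 646 and 753 in young and 820, 1290 and 893 in old nerves. The groups overlapped, with a log2 fold change of 0.35 (adjusted p = 0.220). Per 1000 counts of the macrophage and microglia markers, Cx3cr1 stood at 130, 124 and 132 in young and at 45.0, 62.2 and 76.8 in old nerves. Per 1000 counts of Csf1r alone, a macrophage growth factor receptor on the same list, it stood at 401, 336 and 380 in young and at 286, 365 and 325 in old nerves. The groups were separate against the summed markers and overlapped against Csf1r. Cxcl16 per 1000 counts of the summed markers was 98.5 to 137 in young and 61.0 to 83.0 in old nerves, without overlap. Ccl6 and Ccl9 on that scale overlapped, at 4.82 to 5.82 against 4.89 to 11.2 and at 1.70 to 3.49 against 2.70 to 5.08. Lyz2 and C1qa, with means of 1260 and 712 in young and 5356 and 3210 in old nerves, are a large part of the sum. These scales were chosen after the values were seen and carry no test. Cx3cl1, the membrane-anchored ligand of Cx3cr1, had 2227, 2056 and 2124 in young and 1806, 2214 and 1779 in old nerves (log2 fold change -0.15 ± 0.10, adjusted p = 0.263).

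**Figure D4:**
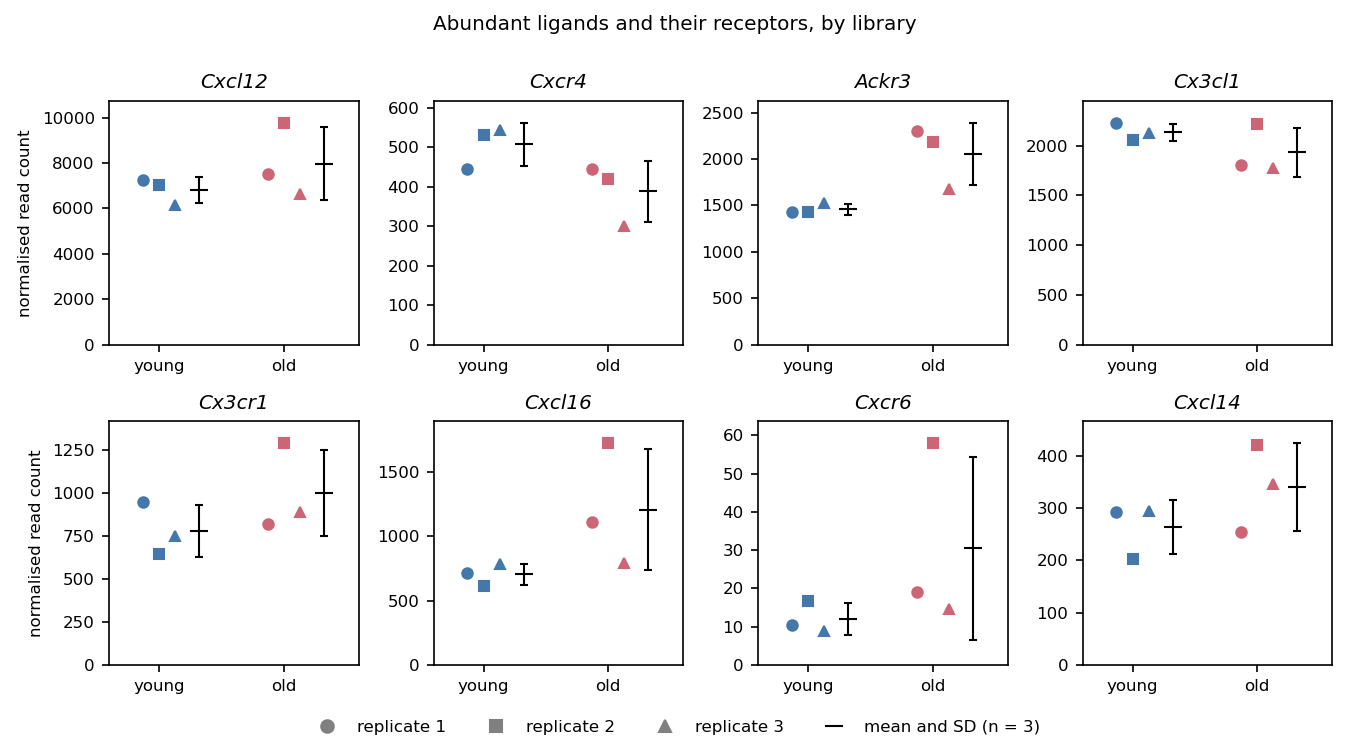
Normalised read counts by library, with group mean and SD (n = 3), for abundant ligands and their receptors. Of the 8 genes, the young and old values overlap in Cxcl12, Cx3cl1, Cx3cr1, Cxcr6 and Cxcl14 and do not overlap in Cxcr4, Ackr3 and Cxcl16.

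Cxcr4, the signalling receptor of Cxcl12, had 445, 531 and 544 in young and 444, 418 and 301 in old nerves. Young 1 and old 1 were almost equal, and the log2 fold change was -0.40 ± 0.17 (adjusted p = 0.109). With the trends of transcript length and GC content removed it was -0.72 (adjusted p = 0.0198). Cxcr2, a neutrophil receptor, had 27.3, 17.7 and 3.30 in young and 49.7, 3.80 and 30.0 in old nerves, so libraries of both groups were high and low. Its log2 fold change was 0.58 ± 1.03 (adjusted p = 0.692). The 10 neutrophil markers summed to 2525, 660 and 335 in young and to 2769, 623 and 2317 in old nerves. They were highest in the same 3 libraries as Cxcr2. Their part in the result was not tested.

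Ccr10, a receptor for the skin and mucosal ligands Ccl27 and Ccl28, was the member called lower (chromosome 11, 101172998 to 101175443, minus strand). It had 105, 100 and 106 in young and 68.7, 78.8 and 53.2 in old nerves. The groups were separate, with a log2 fold change of -0.64 ± 0.20 (adjusted p = 0.0454). The call rested close to the threshold: edgeR gave an adjusted p of 0.0512, and leaving out young 1, young 2, young 3, old 1 or old 3 gave 0.109, 0.112, 0.126, 0.0876 and 0.0842. Ccr6, a receptor of B and T cells, had 11.8 to 22.6 in young and 4.23 to 17.1 in old nerves and was not called. Ccr3, Ccr7, Cxcr3, Xcr1 and the ligand Xcl1 were too low to test, with at most 23.7 in any library.

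**Figure D5:**
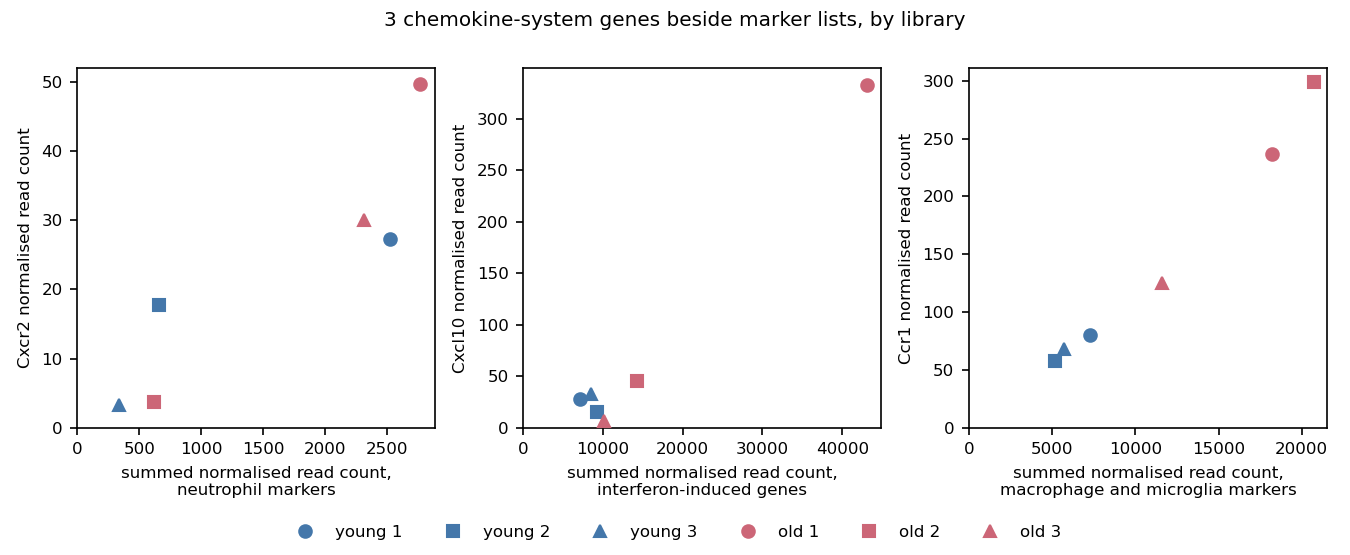
Normalised read counts of Cxcr2, Cxcl10 and Ccr1 (y axis) against the summed counts of neutrophil, interferon-induced and macrophage and microglia genes (x axis), one point per library. Cxcr2 is highest in old 1, old 3 and young 1, Cxcl10 in old 1, and Ccr1 in old 2 and old 1.

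Of the atypical receptors, Ackr3 was called higher. It scavenges Cxcl12 and Cxcl11 (chromosome 1, 90203980 to 90215722, plus strand). Ackr3 had 1424, 1425 and 1526 in young and 2304, 2179 and 1675 in old nerves. The young libraries were close together, old 3 was the nearest to them, and the log2 fold change was 0.48 ± 0.12 (adjusted p = 0.0232). Leaving out young 1, young 2, young 3, old 1 or old 2 moved the adjusted p to 0.0657, 0.0790, 0.0581, 0.0637 and 0.0663, so the call was lost without any 1 of these. Ackr1, which transports chemokines across venules and is also on erythroid cells, had 452, 382 and 377 in young and 206, 285 and 365 in old nerves. Its groups were separate with old 3 nearest to the young ones, and the log2 fold change was -0.53 ± 0.21 (adjusted p = 0.0884). Without old 3 it was -0.73 (adjusted p = 0.0219), and with length and GC trends removed it was -0.93 (adjusted p = 0.0286). Of 10 endothelial markers, 1 was lower (Cldn5, log2 fold change -0.61, adjusted p = 0.0205) and 0 were higher in limma and edgeR. At an unadjusted p under 0.05 in limma 1 was higher and 3 were lower, and DESeq2 called 1 higher. Their median log2 fold change was -0.29, and they summed to between 15330 and 17890 in all libraries. The erythroid markers summed to 2386, 4319 and 3267 in young and to 10360, 3279 and 15860 in old nerves. Of 5 tested erythroid genes limma called 0, edgeR 2 and DESeq2 3 higher, and 3 had an unadjusted p under 0.05. Their part in the result was not tested. Ackr2 and Ackr4, scavengers of CC ligands, were at most 32.0 in all libraries and were not called, and Ackr4 lies inside Acad11.

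Ligands and receptors were then read side by side over 56 known mouse pairs, of which 48 had both partners in the table and 27 had both tested. In 3 pairs both partners were called higher: Ccr1 with Ccl5, Ccl6 and Ccl9. In 5 pairs the ligand was called higher and the receptor was not called, among them Ackr2 with Ccl5, Ccl11 and Ccl17, and Ackr1 with Ccl5. In 3 pairs the receptor was called higher and the ligand was not: Ccr1 with Ccl7, and Ackr3 with Cxcl12 and Cxcl11. Ccr10, called lower, stood beside Ccl27a (34.1 to 57.9 in all libraries) and Ccl28, which were not called. In the remaining 14 pairs neither partner was called, including Cxcl12 with Cxcr4, Cx3cl1 with Cx3cr1 and Cxcl16 with Cxcr6. Pairs share partners, so they are not independent. Cxcl13, Ccl8 and Ccl17 act through Cxcr5, Ccr8 and Ccr4, which were not analysed here.

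Old 2 held the highest value in 24 of the 50 members, old 1 in 11, old 3 in 3 and the young libraries in 12. Among tested members it was old 2 in 16 of 36 (44.4%), and among all tested genes in 15.4%. The 14 members not tested had at most 64.5 in any library, 6 of them had a library at 0 reads, and 8 were highest in old 2. Of the 9 members called higher, 5 had their lowest old value in old 3.

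Beyond the members, 44 other gene symbols of the chemokine system were listed, of which 42 had an entry. Among them were signalling partners, ligands under other names and related chemoattractant receptors. Of 41 tested, 13 were higher (31.7%) and 3 lower (7.32%), with a median log2 fold change of 0.37. Over all tested genes, 15.9% were called higher and 18.7% lower. Rgs1 passed the filter only through the old libraries, so it had to differ, and without it 12 of 40 were higher (30%). Rgs1, a brake on G protein signalling in leukocytes, had 0, 2.95 and 1.10 in young and 63.4, 55.0 and 44.5 in old nerves (log2 fold change 4.76 ± 0.57). Dpp4, a protease that trims several chemokines including Cxcl12, had 1069, 1260 and 1815 in young and 4632, 3297 and 4223 in old nerves (1.57 ± 0.21, adjusted p = 0.00507). Old libraries were above young ones in both. Mif, Lyn, Dock2 and Ptk2b were also higher, with log2 fold changes of 0.50, 0.92, 1.26 and 0.67. Grk2, a kinase that desensitises chemokine receptors, had 4381, 4524 and 4450 in young and 2624, 2978 and 3518 in old nerves, a fall by 0.56 on the log2 scale (adjusted p = 0.00943). Elmo1 and Gnb1 were lower as well, at -0.49 and -0.29. The platelet chemokines that carry other names were not called: Pf4 (Cxcl4) had 66.1 to 96.8 in young and 30.0 to 90.2 in old nerves, and Ppbp (Cxcl7), too low to test, had 74.3, 76.7 and 7.71 in young and 8.46, 3.80 and 0 in old nerves.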

How the data were processed

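Nerve tissue was microdissected, RNA was purified with a miRNeasy kit, degraded samples were excluded on a Bioanalyzer and a TruSeq RNA kit made the libraries, per the labels' protocols. The submitters' processing notes name mm10, TopHat2, Partek and DESeq2. No version, setting or strandedness is given in the sources used. The deposited values are a signal, read counts that the authors divided by 1 size factor per library, as the values show. The p-values, FDR and signed fold change score in the table are the authors' deposited ones, per the file headers. The value of 1 read was 0.940 to 1.10, and dividing by it gave whole reads (tolerance 0.1) for 99.925% to 99.971% of values. The columns headed as controls were taken as the young mice.

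The filter was edgeR's filterByExpr on recovered reads (minimum count 10, total 15), which left 15882 genes. log2(value + 1) was tested in limma (3.58.1), with empirical Bayes variances that follow a trend, 3 young against 3 old, two-sided, Benjamini-Hochberg adjusted over all tested genes, threshold 0.05. Fold changes on this scale understate those of low genes. An exact permutation test of 3 against 3 cannot go below p = 0.1. Alternatives were edgeR (4.0.16) and DESeq2 (1.42.0) on recovered reads, on which edgeR called 5418 genes, other scalings, pseudocounts, filters and thresholds, a replicate block, left-out libraries, length and GC trends removed with mgcv (1.9.3) over GENCODE M21 transcripts, and the authors' FDR. The fits were tested on simulated data. The numbers printed as starts count from 1 and ends are the deposited stop less 1. Overlaps were read from the table's positions.

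A member that enters the counts is not reported here by name. The members, gene lists and pairs were chosen with earlier results of these data known. Members called, the 10 most abundant and their partners are given by library, and others by range. Of 62 RefSeq protein-coding symbols that match the rule, 49 had an entry, and the rest, such as Ccr4, Ccr8 and Cxcr5, were not analysed here. Lists of dendritic cell, T and NK cell, fibroblast and NF-kappa-B response genes were also read: 2 of 7, 0 of 3, 0 of 8 and 3 of 10 tested genes were higher in old, and 0, 0, 2 and 2 were lower. At limma's unadjusted p under 0.05, 1 T and NK cell gene and 0 fibroblast genes were higher, and 1 dendritic cell gene was lower. In edgeR these were 0, 0 and 0, and in DESeq2 0, 0 and 1.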

Additional observations from a re-analysis of the deposited data

How the results depend on the processing

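The members called higher numbered 9. They were 14 in DESeq2 (with Ccl2, Ccl7, Ccl12, Ccl19 and Cxcl16 added), 4 with a mean value of at least 50, 4 at a threshold of 0.01, 5 without young 1 and old 2 together, and 6 to 14 with each library left out. The 14 came without old 3. The 1 member called lower became 0 in edgeR, with upper-quartile scaling, without a filter, with a mean value of at least 50, at a threshold of 0.01, with the replicate block and without young 1 and old 2 together, 0 to 1 with each library left out, and 3 with length and GC trends removed (Ccr10, Cxcr4 and Ackr1). Over all tested genes 5493 calls became 1866 at a threshold of 0.01, 2711 with the replicate block, 1776 without young 1 and old 2 together, 3593 with trends removed and 2589 to 6117 with each library left out (3565 without young 1, 2589 without young 2, 3077 without young 3). Of the chemokine system genes outside the rule, 16 calls became 6 at 0.01, 8 with the block, 6 without young 1 and old 2 together and 7 to 15 with each library left out (7 without young 2, 10 without old 1). A threshold and fewer samples lower counts by construction. The mean value of at least 50 did so for members called higher, as it left out Cxcl13, Ccl9, Ccl5, Ccl8 and Ccl17. It tested 18 members, of which 4 were higher, against 2438 of all 14094 genes tested there. For the rest the cause was not tested.

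The replicate numbers did not pair the samples (correlations of same-numbered deviations -0.291, -0.412 and -0.050). With the replicate block 7 members were higher and 0 lower, with Ccl5, Ackr3 and Ccr10 lost. Rises made up 46.0% of all calls, and 58.2% with upper-quartile scaling, under which 10 members were higher and 0 lower. In the alternatives that tested them (up to 19), the call of 21 of 36 tested members never changed. Of these, 3 were called members: Ccl6 (19), Cxcl13 and Ccl8 (18 each, since both were under a mean value of 50). Cxcl13 and Ccl8 passed the filter only through the old libraries. The rest stayed not called, and their sign could change, as for Cxcl10 without old 1. None of the called members changed sign. The authors' FDR gave 13 members higher and 1 lower. Members under about 10 reads in most libraries were not tested, and what was detectable there was not measured.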
